A study of Drosophila melanogaster with 4 samples.

Results

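The clock output genes described here are to (takeout), Slob, Achl (Achilles), Crg-1, Pdf and Pdfr, which carry time of day from the molecular clock to physiology and behaviour, together with the Pdf signal that links clock neurons. They were taken by gene ID and symbol, 6 of the 15682 genes in the deposited table, and were chosen by their role and partly by measured values, their lower levels in MJDtr-78Q heads. Their differences between the groups are therefore a description and carry no test. All 6 were among the 9049 genes with a mean of at least 10 counts over the 4 libraries, the genes tested.

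Poly(A) RNA came from heads of Drosophila melanogaster in 4 libraries. The 2 libraries titled w1118 came from flies without MJDtr-78Q, and the 2 titled MJDtr-78Q from flies expressing it. This transgene makes part of human ataxin-3 carrying a lengthened run of glutamines, and serves in flies as a model of Machado-Joseph disease. The labels state the tissue and the presence or absence of this protein, and do not state the driver that expresses it, the age or sex of the flies, or the time of day at which heads were collected. They also do not say that the libraries of a group came from separate flies, so the spread between them may be technical.

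In the fly clock, the transcription factors CLK and CYC switch on per and tim, whose proteins return to the nucleus and stop their own transcription. The same factors drive output genes directly or through a second layer of regulators such as vri and Pdp1, so that many head transcripts rise and fall daily. PDF is a neuropeptide of the ventral lateral clock neurons, and its receptor Pdfr, a G protein-coupled receptor that raises cAMP, keeps clock cells in step with one another. For genes that cycle, the level in a sample depends on the hour of collection as well as on genotype, and these cannot be told apart where the hour is not stated.

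Levels are log2(count + 1) after quantile normalization of the 4 libraries together, and differences are MJDtr-78Q minus w1118 on that scale, with 2 libraries per group. Both MJDtr-78Q libraries lay below both w1118 libraries for 4 of the 6 genes, namely to, Slob, Achl and Crg-1. Over all 9049 tested genes the same held for 1402 (15.5%), and for 188 (2.08%) it came with a difference of -1 or below, as it did for these 4. Since the genes were picked with this contrast in view, nothing is read from the count. The median difference of the 6 genes was -1.13, beside -0.02 over all tested genes. By limma with Benjamini-Hochberg adjustment 0 of the 9049 genes (0%) passed, and 532 (5.88%) had an unadjusted p under 0.05. In whole heads, fewer cells of a type and less RNA per cell cannot be told apart.

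**Figure D1:**
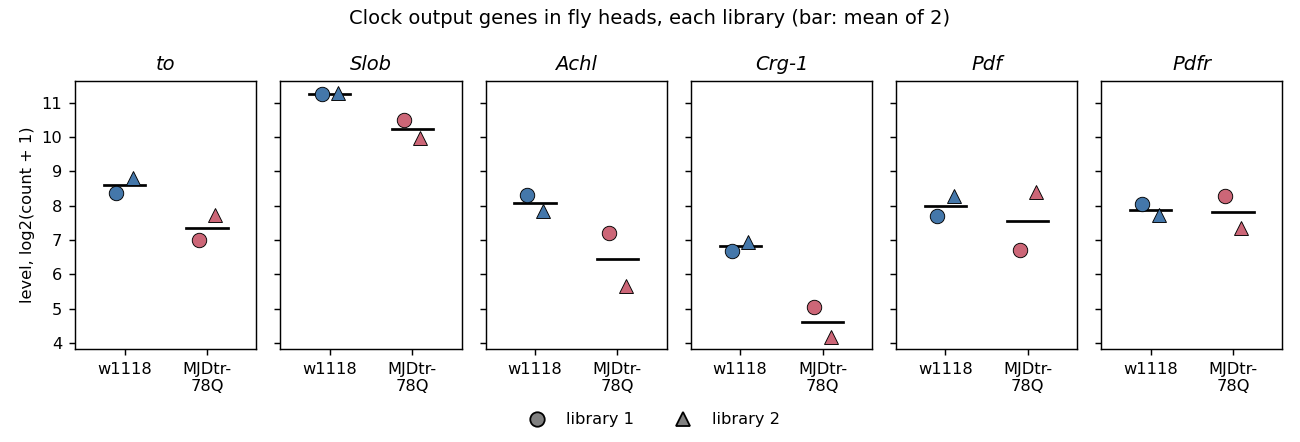
Level of each clock output gene in each library, on the log2(count + 1) scale after joint quantile normalization; circles are library 1, triangles library 2 and bars the mean of the 2 libraries of a group. The MJDtr-78Q libraries sit below both w1118 libraries for to, Slob, Achl and Crg-1, whereas for Pdf and Pdfr they sit on either side of them.

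The gene to encodes a secreted protein of the juvenile hormone-binding family, made in the fat body of the head and in feeding and sensory tissue, and is linked to the starvation response and to male courtship. It lies on chromosome 3R (FBgn0039298, positions 21065901 to 21067175 in the deposited table, whose genome build is not given in the sources used here) and has 2 annotated transcripts. Its level was 8.38 and 8.80 in w1118 libraries 1 and 2, and 6.99 and 7.72 in MJDtr-78Q libraries 1 and 2. The groups did not overlap, with a gap of 0.65 between the lowest w1118 and the highest MJDtr-78Q library. The difference was -1.23 (SE 0.35), a level 2.35 times lower. With any 1 library left out it lay between -0.86 and -1.58. Of all tested genes, 1.57% had a lower difference than to. The same share was 2.32% for Slob, 0.67% for Achl, 0.21% for Crg-1, 10.8% for Pdf and 43.8% for Pdfr. Since the members were picked partly for their fall, these shares carry no test.

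Slob encodes a protein that binds the calcium-activated potassium channel Slowpoke and changes its gating. It lies on 2L (FBgn0264087, positions 7642004 to 7675078), with 11 annotated transcripts. Its level was 11.24 and 11.27 in w1118 libraries and 10.49 and 9.96 in MJDtr-78Q libraries. The w1118 libraries were nearly equal, and both MJDtr-78Q libraries lay below them with a gap of 0.75, against 0.53 between themselves. The difference was -1.03 (SE 0.28), a level 2.04 times lower. Leaving out MJDtr-78Q library 2 gave -0.77, and leaving out MJDtr-78Q library 1 gave -1.31. Taken from gene start to end, introns included, the Slob locus shares 9033 bases with Myo28B1, a myosin gene annotated on the opposite strand. How much of this stretch is exonic was not measured. Myo28B1 was at 7.46 and 7.33 in w1118 and at 6.66 and 5.56 in MJDtr-78Q libraries (difference -1.28, SE 0.42). The library kit keeps strand, but whether the counting used it is not stated, so reads in the shared stretch cannot be assigned with certainty to either gene.

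Achl is a clock-controlled gene of neurons, known in flies for holding down immune genes of the fat body. It lies on 2R (FBgn0033936, positions 10307845 to 10312099). Its level was 8.31 and 7.85 in w1118 libraries and 7.22 and 5.65 in MJDtr-78Q libraries. The MJDtr-78Q libraries differed from each other by 1.56, so the group mean of 6.43 ± 1.10 (SD, n = 2) rests on unlike values, while the w1118 mean was 8.08 ± 0.33. The difference was -1.64 (SE 0.56), a level 3.12 times lower. Leaving out MJDtr-78Q library 2 gave -0.85, and leaving out MJDtr-78Q library 1 gave -2.41.

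Crg-1 encodes a forkhead-domain protein, named as a circadianly regulated gene. It lies on X (FBgn0021738, positions 3688899 to 3691372), with 1 annotated transcript. Its level was 6.69 and 6.95 in w1118 libraries and 5.04 and 4.19 in MJDtr-78Q libraries, equal to 102.5 and 122.8 against 31.9 and 17.2 normalised counts. It had the widest gap of the 6 between groups, 1.65. The difference was -2.21 (SE 0.38), a level 4.62 times lower. With any 1 library left out it stayed between -1.79 and -2.64. The counting error of so low a level is unknown, because the deposited values are averaged logs.

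Pdf encodes the precursor of the PDF peptide and is the shortest of the 6 genes. It lies on 3R (FBgn0023178, positions 22281183 to 22281863), with 1 annotated transcript. Its level was 7.71 and 8.29 in w1118 libraries and 6.70 and 8.41 in MJDtr-78Q libraries. MJDtr-78Q library 1 was the lowest of the 4 and library 2 the highest, so the groups overlapped. The difference of -0.45 (SE 0.62) was smaller than the 1.71 between the MJDtr-78Q libraries. Leaving out MJDtr-78Q library 1 turned it to 0.40, and leaving out MJDtr-78Q library 2 gave -1.29. With w1118 library 1 left out it was -0.74, and with w1118 library 2 left out -0.16.

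Pdfr encodes the PDF receptor. It lies on X (FBgn0260753, positions 2448135 to 2471044), with 4 annotated transcripts. Its level was 8.05 and 7.72 in w1118 libraries and 8.27 and 7.36 in MJDtr-78Q libraries. Here MJDtr-78Q library 1 was the highest of the 4 and library 2 the lowest, the reverse of Pdf. The difference of -0.07 (SE 0.38) turned to 0.38 with MJDtr-78Q library 2 left out and to 0.10 with w1118 library 1 left out. It was -0.52 with MJDtr-78Q library 1 left out and -0.24 with w1118 library 2 left out. Neither the peptide gene nor its receptor gene thus separated the groups, and these 2 libraries per group leave differences of either sign possible for both.

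To compare levels between genes, counts were divided by exonic length. In w1118 heads Pdf, Slob and to were close, at 8.55 ± 0.41, 8.37 ± 0.02 and 8.26 ± 0.30 (log2 counts per kilobase, SD, n = 2 each), and their library ranges overlapped. Crg-1 followed at 6.51 ± 0.18, then Achl at 5.92 ± 0.33 and Pdfr at 5.65 ± 0.24, of which Achl and Pdfr overlapped. In MJDtr-78Q heads Pdf was at 8.10 ± 1.21, Slob at 7.34 ± 0.38, to at 7.02 ± 0.52, Pdfr at 5.58 ± 0.65, Achl at 4.26 ± 1.12 and Crg-1 at 4.25 ± 0.63. There each neighbouring pair in the order overlapped except to and Pdfr, and Pdfr and Achl. Pdfr thus stood last of the 6 in w1118 heads, and above Achl and Crg-1 in MJDtr-78Q heads.

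The 2 libraries of a group differed by gene length, and this touches the members. Among all tested genes in the shortest of 5 length classes, with 30 to 1183 exonic bases, library 1 minus library 2 had a median of -0.35 in w1118 and -0.79 in MJDtr-78Q. In the longest class, with 4211 to 71820 bases, the medians were 0.29 and 0.82. Pdf, with 680 exonic bases, had -0.58 and -1.71, and to, with 1253, had -0.42 and -0.73. The long genes Achl (4441 bases) and Pdfr (4668 bases) had 0.46 and 1.56, and 0.33 and 0.91, and Slob (7358 bases) had -0.03 and 0.53. Pdf, to, Achl, Pdfr and Slob thus had the sign of their length class in the MJDtr-78Q pair. Crg-1 did not: with 1230 bases it had 0.85 there, in a length class where 80.8% of genes had library 1 below library 2.

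**Figure D2:**
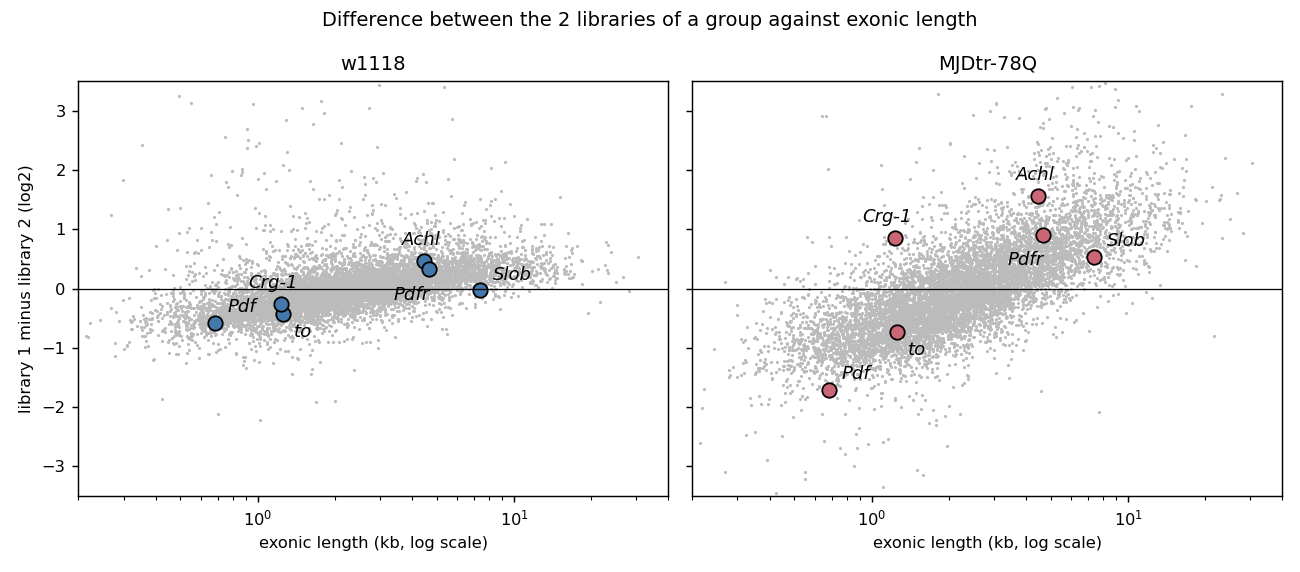
Library 1 minus library 2 (log2) within each group against exonic length in kilobases on a log scale; grey points are tested genes with a length, large points the clock output genes, and genes beyond the axis ends are not drawn. In both groups long genes lie higher than short ones, more so in MJDtr-78Q, and Crg-1 at 0.85 lies above most genes of its length there while Pdf at -1.71 lies below most of its length.

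With the part of each library's length trend that differed between libraries removed, the differences were -1.16 for to, -1.21 for Slob, -1.71 for Achl, -2.14 for Crg-1, -0.32 for Pdf and -0.15 for Pdfr. The same 4 genes, to, Slob, Achl and Crg-1, had groups that did not overlap. The gap between the MJDtr-78Q libraries went from 1.71 to 0.87 for Pdf and from 0.91 to 0.27 for Pdfr, while for Crg-1 it went from 0.85 to 1.36. Slob then had MJDtr-78Q library 1 below library 2, at 9.88 and 10.40.

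The genes whose pattern over the 4 libraries was most like each member were found by the distance between centred log2 values, a measure that with 4 libraries many genes can meet. For to these were CG11892 (distance 0.07), which lies 40094 bases from to on 3R, and CG17108 (0.11). For Slob they were Pkn (0.08), encoding a protein kinase, and CG32447 (0.17), and for Achl inaF-B (0.31) and t (0.32), which encodes the hydrolase tan. For Crg-1 they were ppk (0.17), encoding a sodium channel subunit, and CG2681 (0.46), for Pdf Lk (0.05), encoding the leucokinin precursor, and the noncoding lncRNA:CR43241 (0.06), and for Pdfr Calx (0.03), encoding a sodium/calcium exchanger, and Abca3 (0.04). Among the members themselves the closest pair was Achl and Crg-1 (0.91), and the farthest Achl and Pdf (2.71).

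The genes next to each member on the chromosome were chosen by position only. Some have related functions, as Jhbp7 is of the family of to, and Cyp4d21 is in a list of cycling transcripts used below. Since the members were picked partly for their fall, their place below neighbours carries no test. Of the 36 nearest tested genes that do not overlap a member, 3 on either side of each (so without Myo28B1, which overlaps Slob and lay below), 7 lay below in both MJDtr-78Q libraries, 4 lay above and 25 overlapped, with a median difference of 0.01. Over all tested genes the shares were 15.5% below and 14.0% above. Around Achl all 6 overlapped, with differences from -0.07 to 0.20, and around Crg-1 they ran from -0.17 to 0.76. Next to to, and 1284 bases away, lies Jhbp7, another gene of the juvenile hormone-binding family. Jhbp7 was at 7.30 and 6.32 in w1118 and at 8.06 and 8.43 in MJDtr-78Q libraries (difference 1.43, SE 0.40), the opposite sign to that of to. It did not pass over all genes (limma adjusted p = 0.66). Beside Slob lay genes of both signs. Cyp4d21, a cytochrome P450 gene, differed by -1.48 (SE 0.28), and CG6739 and CG33296 by 1.39 (SE 0.24) and 1.85 (SE 0.28), each with limma adjusted p = 0.595.

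**Figure D3:**
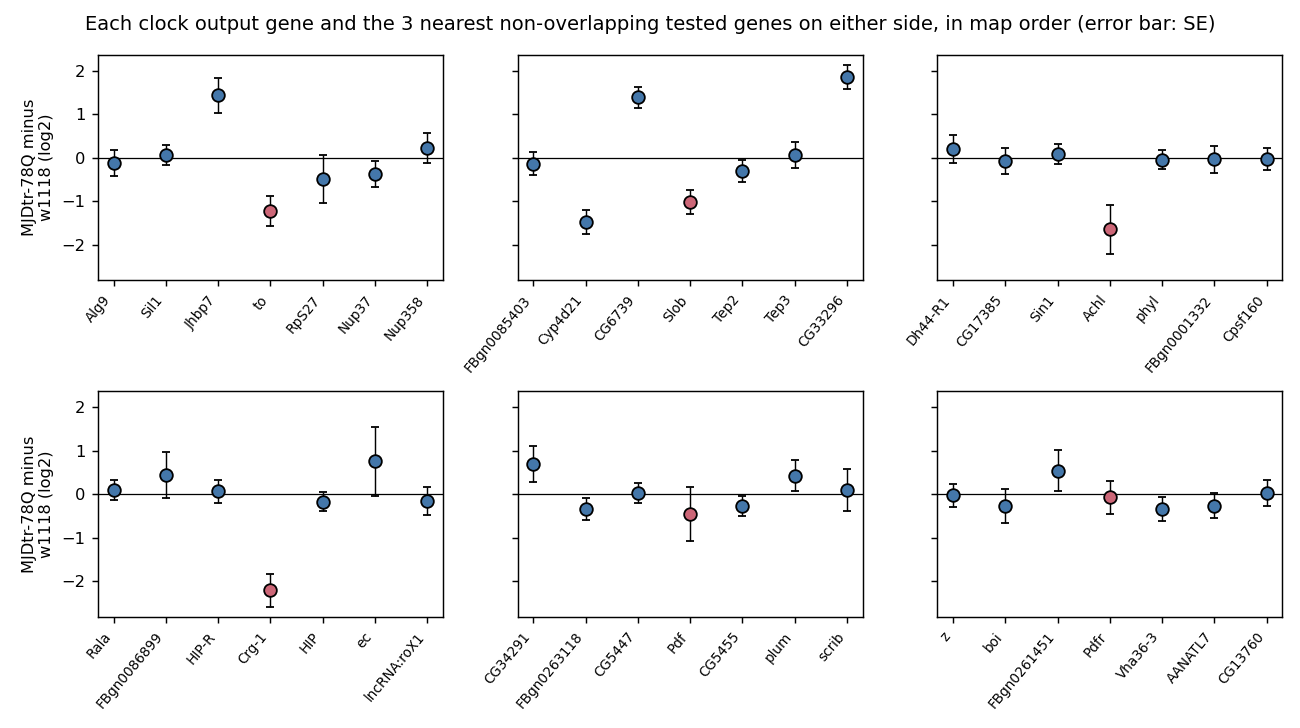
Difference (log2, MJDtr-78Q minus w1118) of each clock output gene, in red, and of the 3 nearest tested genes on either side that do not overlap it, in blue (Myo28B1, which overlaps Slob, is left out), in map order; error bars are the SE of the fit. Achl at -1.64 and Crg-1 at -2.21 lie below all of their plotted neighbours, as does to at -1.23, Slob has neighbours from -1.48 to 1.85, Pdf at -0.45 lies below its lowest neighbour (-0.34) by less than its SE, and Pdfr lies among its neighbours.

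The rest of the clock was described from lists of known genes, members left out. None of these genes passed the test over all genes. In the core loops, both MJDtr-78Q libraries lay below both w1118 libraries for 4 of 8 genes, per, vri, cry and cyc, and above for 0, beside 15.5% and 14.0% of all tested genes. The same shares are to be set beside the counts of each later list. The median of the core loops was -0.36. The repressor gene per was at 9.32 and 9.71 in w1118 and at 8.23 and 7.97 in MJDtr-78Q libraries (difference -1.42, SE 0.27, limma adjusted p = 0.595). The regulator vri differed by -0.51 (SE 0.27) and the light receptor cry by -0.35 (SE 0.25). The activator Clk, at 6.35 and 4.55 in w1118 and 7.37 and 4.65 in MJDtr-78Q libraries, differed by 0.56 (SE 1.08), less than the spread within either group. Of 11 tested genes for kinases, phosphatases and degradation, 1 lay below, 1 above and 9 overlapped. The deubiquitinase gene Usp8, which was the one below, differed by -0.94 (SE 0.24, limma adjusted p = 0.628), the kinase gene nmo by 0.43 (SE 0.25) and CkIIalpha by -0.19 (SE 0.25).

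Around the Pdf signal, genes of PDF reception and cAMP signalling had a median of 0.27 over 10 genes, with 0 below, 2 above and 8 overlapping. The cAMP phosphodiesterase gene dnc differed by 0.43 (SE 0.27), the protein kinase A gene Pka-C1 by 0.52 (SE 0.40) and the transcription factor gene Mef2 by 0.23 (SE 0.23). Other genes listed for peptides and identity of clock neurons had a median of -0.26 over 13 genes, with 6 below, 2 above and 5 overlapping. Over all tested genes 15.5% lay below and 14.0% above. The peptide gene AstC was at 8.38 and 8.91 in w1118 and 7.74 and 8.05 in MJDtr-78Q libraries (difference -0.75, SE 0.29, limma adjusted p = 0.843). The peptide genes Dh44 and Dh31 differed by -0.53 (SE 0.22) and -0.55 (SE 0.27). The 2 that lay above, SIFa and Fer2, differed by 0.55 (SE 0.35) and 0.56 (SE 0.42). Peptides of this list are made by other neurons too, and whether clock neurons make each of them was not tested here.

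The partners of Slob did not separate the groups. Of 11 tested genes for channels, channel partners and sleep, all 11 overlapped, with differences from -0.22 to 0.34 and a median of -0.0030. Most of these genes are in the longest length class, where the MJDtr-78Q libraries differed by a median of 0.82. In that class 6.89% of genes lay below, so the overlap says little about these partners. Most genes of the PDF reception and neuron marker lists are in that class too. The channel gene slo itself differed by -0.05 (SE 0.66), the potassium channel gene Sh by 0.34 (SE 0.59), its regulator qvr by -0.18 (SE 0.33) and the kinase gene CaMKII by 0.08 (SE 0.36).

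Relatives of to differed in sign. Of 12 tested genes of the family, 3 lay below, 3 above and 6 overlapped, with a median of -0.30. Besides Jhbp7, the genes CG31189 and Jhbp14 differed by 0.78 (SE 0.26) and 0.67 (SE 0.25), whereas Jhbp1 and Jhbp3, which were the next by p, differed by -0.79 (SE 0.33) and -0.65 (SE 0.32). Of 11 other tested forkhead genes, relatives of Crg-1, 2 lay below, 2 above and 7 overlapped, with a median of 0.23. Their differences ran from -0.33 to 0.38, against -2.21 for Crg-1. Since Crg-1 was picked partly for its fall, its place below these relatives carries no test. The pair with the lowest p, fd59A and FoxP, differed by 0.38 (SE 0.24) and -0.33 (SE 0.22).

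Other transcripts known to cycle in heads had a median of -0.00645 over 16 genes, with 6 below, 2 above and 8 overlapping. Beside this, 15.5% of all tested genes lay below and 14.0% above. The photoreceptor channel gene trpl had a difference of -3.03 (SE 0.23, limma adjusted p = 0.512). Cyp4d21, already given beside Slob, and Usp8 are in this list too, while Pdh, encoding a retinal pigment cell dehydrogenase, differed by 0.12 (SE 0.25) and Gclc, for glutathione synthesis, by -0.05 (SE 0.26). Over the list, differences ran from -3.03 to 1.33.

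**Figure D4:**
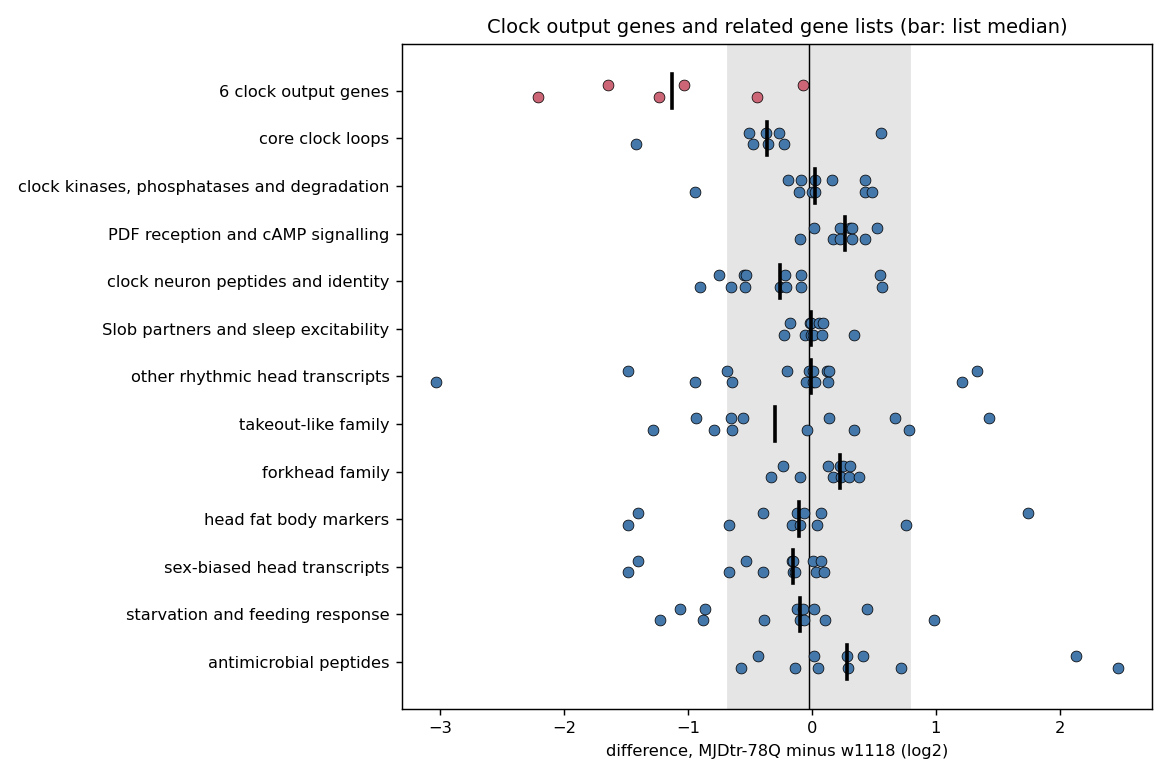
Difference (log2, MJDtr-78Q minus w1118) of the 6 clock output genes, in red, and of tested genes of related lists, in blue, with members left out of the lists; black bars are list medians, the thin line the median of all tested genes and the grey band their 5th to 95th percentiles. The output genes have a median of -1.13, the core loops -0.36, and the other lists drawn lie between -0.30 and 0.29. Neuron, photoreceptor, glial, muscle and hemocyte markers are not drawn, and their medians run from -0.62 (photoreceptor) to 0.50 (muscle).

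Markers of the tissues in which to is made gave mixed values. Head fat body markers had a median of -0.11 over 12 tested genes, with 2 below, 1 above and 9 overlapping, and their summed normalised counts were 148606 and 141151 in w1118 and 121641 and 150917 in MJDtr-78Q libraries. The 2 below, Cyp4d21 and Obp99b, an odorant-binding protein gene, differed by -1.48 (SE 0.28) and -1.40 (SE 0.28), and Fbp1, a storage protein receptor gene, by 1.75 (SE 0.62). Sex-biased transcripts had a median of -0.16 over 13 genes, with 3 below, 0 above and 10 overlapping. This list mixes genes of female and male bias, so its median and counts do not give the sex of the flies. The 3 below were Cyp4d21 and Obp99b, which are in this list too, and the sex determination gene tra, at -0.53 (SE 0.32). Over the whole list 9 differences were below 0 and 4 above. Among those that overlapped were the yolk protein genes Yp1, Yp2 and Yp3 at 0.07, -0.16 and -0.39 and the male dosage compensation RNAs roX1 and roX2 at -0.16 and -0.13. The part of fat body content or sex in the values of to was not tested.

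Antimicrobial peptide genes are set beside Achl because of its known role. Of 11 tested genes, 1 lay below, 2 above and 8 overlapped, with a median of 0.29. CecC was at 3.94 and 4.45 in w1118 and 6.55 and 6.79 in MJDtr-78Q libraries (difference 2.47, SE 0.32, limma adjusted p = 0.595). CecB was at 1.99 and 3.86 in w1118 and 5.16 and 4.97 in MJDtr-78Q libraries (difference 2.13, SE 0.72). Its w1118 levels were low and unlike (library 1 minus library 2, -1.87), so the size of its difference is uncertain. Def differed by -0.57 (SE 0.28). The summed normalised counts of the list were 1925 and 1238 in w1118 and 909 and 3893 in MJDtr-78Q libraries, so the group with the lower Achl held both the lowest and the highest sum.

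The markers fit the labelled tissue, with the tested photoreceptor, neuron and glial markers read in every library. Photoreceptor markers lay below in both MJDtr-78Q libraries for 6 of 9 genes, beside 15.5% of all tested genes. They had a median of -0.62 and summed normalised counts of 129371 and 128829 in w1118 and 86904 and 70941 in MJDtr-78Q libraries. Arr2, ninaE and Arr1 differed by -1.34 (SE 0.22), -1.09 (SE 0.20) and -1.15 (SE 0.25). The 3 that overlapped, trp, norpA and ninaC, differed by 0.24 (SE 0.27), -0.34 (SE 0.42) and -0.01 (SE 0.44). Neuron markers had a median of 0.27 over 9 genes, with 0 below, 1 above and 8 overlapping, and glial markers 0.11 over 7, with 3 below (wrapper, repo and loco), 1 above and 3 overlapping. The neuron markers Rdl, cac and elav differed by 0.40 (SE 0.47), 0.38 (SE 0.46) and 0.18 (SE 0.24). The glial markers wrapper, nrv2 and repo differed by -0.53 (SE 0.22), 0.35 (SE 0.25) and -0.35 (SE 0.27). Muscle markers had a median of 0.50 over 6 genes, with 0 below and 4 above, and hemocyte markers 0.43 over 7, with 0 below and 1 above. The part of these cell types in the values of to, Slob, Achl and Crg-1 was not tested.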

How the data were processed

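Poly(A) RNA of 4 head libraries was measured, 2 w1118 and 2 MJDtr-78Q, grouped by their titles. Tools named, with no roles, in the submitters' processing notes are HTSeq 0.6.1, Bowtie, TopHat2 2.0.10, CASAVA 1.8.2 and cutadapt 1.2.1. Each deposited value is a log2 of counts plus 1; from the values, they had been quantile normalised within each group and not between groups. Back-transformed totals were 7147867 and 7147717 in w1118 and 3111583 and 3111393 in MJDtr-78Q libraries, made alike within a group, so true depth and counting error are unknown. The 4 libraries were quantile normalised together, genes with a mean of at least 10 were kept, and limma 3.58.1 in R 4.3.3 (intensity trend, two-sided, Benjamini-Hochberg at 0.05) compared the groups. The steps were run on simulated counts that held no length trend between libraries, unlike these data, and nothing here rests on that run. Symbols were matched by gene ID for 15002 genes. Exonic lengths came from the Ensembl BDGP6 annotation (8641 tested genes); a loess trend (span 0.5) on log2 length was fitted per library, and its departure from the mean trend over libraries removed. Members and lists were chosen with earlier results of these data known, and neighbouring genes and overlaps were examined after values were seen. Named genes are all members, up to 3 genes of lowest p per list and the 2 nearest patterns per member. Also named, after their values were seen, are neighbours, slo, Clk, Pdh, Gclc, the sex markers, loco, ple, e, Thor, Jhbp1 and Jhbp3. The same holds for SIFa, Fer2, trp, norpA, ninaC, foxo, Pepck1, bmm, srl and Lip4. Of the listed genes, those whose current ID is not in the table were not analysed here. Alternatives were scaling, pseudocount, filter, variance prior, trend, replicate block, length correction and each library left out.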

Additional observations from a re-analysis of the deposited data

How the results depend on the processing

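The count of genes past the threshold, 0 of 9049, stayed 0 with TMM and upper-quartile scaling, a pseudocount of 0.5 or 5, a minimum mean of 50 or no minimum, no intensity trend and a robust variance prior. It was 6 with length correction and 6742 with the deposited scaling, where the median of all tested genes is -1.23, and 0 to 3 with a library left out, the 3 coming without w1118 library 1. With the replicate number as a block it was 387, and the differences between libraries 1 and 2 in the 2 groups had r = 0.54 across genes, which are not independent replicates; no label ties equal numbers to a shared batch. The median difference of the 6 clock output genes was -2.33 with the deposited scaling, and -1.02 to -1.23 with a library left out. Relative to all tested genes, the deposited scaling gave -1.20 for to, -0.996 for Slob, -1.64 for Achl, -2.22 for Crg-1, -0.42 for Pdf and -0.05 for Pdfr. The members whose groups did not overlap numbered 4 to 5 with a library left out, when 20.2% to 45.9% of all tested genes also lay below, and 6 with the deposited scaling, when 89.9% did. Leave-one-out renormalised the other 3 libraries, kept the genes tested, and assumes that a lone library varies like the other group.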

Other observations

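Feeding and insulin genes, a setting in which to is known to respond, had a median of -0.10 over 13 tested genes, with 4 below in both MJDtr-78Q libraries, 2 above and 7 overlapping. Among all tested genes, 15.5% lay below and 14.0% above. The insulin-like peptide gene Ilp3 was at 8.04 and 8.71 in w1118 and 6.65 and 7.65 in MJDtr-78Q libraries (difference -1.22, SE 0.44, limma adjusted p = 0.815). The glucosidase gene tobi differed by -1.06 (SE 0.23, limma adjusted p = 0.607) and the sugar-sensing factor gene sug by 0.99 (SE 0.29, limma adjusted p = 0.689). Thor, which rises on starvation in flies and was chosen after its value was seen, differed by 0.45 (SE 0.23). Other genes of the list were near no difference, with foxo at -0.10, Pepck1 at 0.10, bmm at -0.07, srl at -0.07 and Lip4 at 0.02. The feeding state of the flies was not tested.

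Of the other transcripts known to cycle in heads, the 2 that lay above in both MJDtr-78Q libraries were ple and e. The tyrosine hydroxylase gene ple was at 10.41 and 9.61 in w1118 and 11.54 and 10.90 in MJDtr-78Q libraries (difference 1.21, SE 0.39, limma adjusted p = 0.731). The gene e, which encodes the conjugating enzyme ebony, was at 9.69 and 8.28 in w1118 and 10.48 and 10.14 in MJDtr-78Q libraries (difference 1.33, SE 0.51, limma adjusted p = 0.843). Neither passed the test, and both were chosen after their values were seen.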
